A study of Mus musculus with 12 samples.

Results

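Immediate early genes are switched on within minutes of receptor stimulation and do not need new protein for their transcription. The 10 genes described here are *Fos*, *Fosb*, *Jun* and *Junb* of the AP-1 family, *Egr1*, *Egr2* and *Egr3* of the EGR family, and *Nr4a1*, *Nr4a2* and *Nr4a3* of the NR4A family, taken by symbol from the 24561 genes of the count table. They were measured in OT-II Tfh cells (CD4 T cells with a transgenic receptor for ovalbumin, sorted as CXCR5hiPD-1hi follicular helper cells) from the draining lymph nodes of mice of the C57BL/6 strain, 3 days after NP-OVA was given with LPS in alum. The transferred T cells carried the label CD4-CrexBcl6fl/+ in 3 recipients, called BCL6-insufficient, and the label CD4-Cre in the other 3, called wild-type, so both groups carried the Cre, which the *Cd4* promoter drives throughout the T lineage and which can delete the single floxed *Bcl6* allele of the former. All recipients were CD45.1 mice lacking SAP, whose own T cells give little help to germinal centers. Each mouse gave 2 technical repeats of about 200 cells, and the labels do not say what set repeat 1 apart from repeat 2. Whether recipients shared a donor was not stated for this experiment, so the p-values cover only the spread between recipients.

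AP-1 is a dimer of a FOS-type and a JUN-type protein, and in T cells it binds composite sites together with NFAT in genes such as *Il2* and *Il4*. EGR proteins are zinc finger factors induced through the ERK pathway and SRF, and EGR2 and EGR3 are known both for restraining T cell activation and for a role in Tfh cell differentiation. NR4A proteins are orphan nuclear receptors whose mRNA follows antigen receptor signal strength, and *Nr4a1* (Nur77) is widely used as a reporter of recent receptor engagement.

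The start regions of *Egr2*, *Jun*, *Fos* and *Nr4a1* are shown because the results below turn on these genes. RefSeq start windows of GRCm38.p6 matched 8 of the 10 members, all but *Egr1* and *Egr3*, and each sequence is the 150 bases just before a transcript start, read 5′ to 3′ on the gene's strand. Capitals mark matches, on either strand, to the CArG box bound by SRF (CC, then A or T at each of 6 places, then GG), the CRE TGACGTCA bound by CREB, its core TGACG, the AP-1 site TGANTCA, the EGR site GCGNGGGCG and the NR4A site NBRE, AAAGGTCA. A full CRE also holds the core.
Egr2, chr10:67537719-67537868, plus strand: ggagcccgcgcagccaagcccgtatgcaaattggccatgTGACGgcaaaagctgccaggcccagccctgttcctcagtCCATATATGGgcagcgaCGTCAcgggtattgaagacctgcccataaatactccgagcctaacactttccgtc
Jun, chr4:95052223-95052372, minus strand: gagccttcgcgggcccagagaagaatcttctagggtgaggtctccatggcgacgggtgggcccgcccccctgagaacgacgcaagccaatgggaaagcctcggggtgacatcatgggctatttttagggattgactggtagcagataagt
Fos, chr12:85473740-85473889, plus strand: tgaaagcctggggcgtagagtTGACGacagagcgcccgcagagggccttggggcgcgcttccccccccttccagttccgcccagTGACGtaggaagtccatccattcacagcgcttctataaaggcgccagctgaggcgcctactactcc
Nr4a1, chr15:101266696-101266845, plus strand: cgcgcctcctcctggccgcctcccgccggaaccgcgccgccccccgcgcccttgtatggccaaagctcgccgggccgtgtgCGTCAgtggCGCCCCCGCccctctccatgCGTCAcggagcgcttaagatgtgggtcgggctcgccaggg

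In the *Egr2* sequence, the CArG box began 72 bases before the start, between CRE cores at 111 and, on the opposite strand, 55 bases before it. A CArG box lay in 1.63% of the 32851 start windows of the same length (250 bases before to 50 after the start), and 4 of the 5 *Egr2* windows, most of which overlap, held one. The window shown was chosen after its matches were seen. The *Fos* sequence held CRE cores at 129 and 66 bases before the start, a motif found in 20.8% of all windows. In the *Nr4a1* sequence the EGR site (5.55% of all windows) began 60 bases before the start, and CRE cores began 69 and 40 bases before it, all 3 on the opposite strand. The *Jun* sequence shown, and its whole window, held no exact match to the 6 motifs. Near matches, such as its tgacatca beside the CRE TGACGTCA, were not counted. No member's window held a full CRE, an AP-1 site or an NBRE, which 1.79%, 7.81% and 1.51% of all windows did. These are matches of letters in short windows and not measured binding.

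Before the members, the targeted gene was examined. *Bcl6*, which encodes the transcription factor that directs Tfh cell differentiation, had 149 ± 2.18 CPM (SD, n = 3) in the mice labelled BCL6-insufficient and 62.4 ± 11.5 CPM (SD, n = 3) in the wild-type mice, where CPM are counts relative to the TMM-scaled library size (log2 fold change 1.25, standard error 0.12, adjusted p = 6.3e-07, edgeR). The transcript thus goes against the label (the counts do not separate a deleted from an intact allele), and the first group is written as labelled BCL6-insufficient throughout, with each direction resting on the labels. Total counts per library were 3343375 to 8315722, overlapping between the groups, and 1 ribosomal RNA gene, CT010467.1, took 12% to 20.9% of them. All 14 T and Tfh cell markers were detected in every library, and their sum did not overlap between the groups (10154 to 11851 CPM in those labelled BCL6-insufficient, 7720 to 9962 CPM in wild-type ones). Most of this sum was *Trac*, at 7009 ± 354 CPM in the mice labelled BCL6-insufficient and 4771 ± 654 CPM in the wild-type mice (SD, n = 3). In the same order, *Cd3d* stood at 536 and 535 CPM and *Cd2* at 324 and 325 CPM. By edgeR, 3 of the 14 were called higher, *Trac* among them, and 4 lower. The part of these marker differences in the results below was not tested. The summed level of 14 B cell markers was 477 to 861 CPM in the libraries labelled BCL6-insufficient and 593 to 1022 CPM in the wild-type ones, most of it *Ighm*, while *Ms4a1* was at 0 in 9 and *Ebf1* in 11 of the 12 libraries. The summed level of 8 myeloid markers was 150 to 199 CPM and 154 to 181 CPM, in the same order.

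Per length, *Junb* and *Egr1* were the most abundant members and *Fosb* and *Nr4a2* were close to absent. In the wild-type mice, *Junb* stood at 36.0 ± 2.09 CPM per kb of exon (SD, n = 3), *Egr1* at 24.6 ± 5.33 (SD, n = 3) and *Nr4a1* at 7.37 ± 4.89 (SD, n = 3), and the mice of these 3 genes did not overlap. Below them came *Egr2* (4.23 ± 1.35), *Jun* (3.54 ± 2.11), *Fos* (2.45 ± 2.14), *Egr3* (0.891 ± 0.288) and *Nr4a3* (0.435 ± 0.345), all per kb with SD and n = 3. From *Nr4a1* to *Nr4a3*, the mice of each gene overlapped those of the next, so neighbors in that stretch of the order did not differ beyond their spread. *Fosb* (0.0855 ± 0.0708) and *Nr4a2* (0.0725 ± 0.0953) lay below the mice of *Nr4a3* and overlapped each other. The order of the means was the same in the mice labelled BCL6-insufficient, from *Junb* at 29.4 ± 3.08 CPM per kb (SD, n = 3) to *Nr4a2* at 0.0626 ± 0.0794 (SD, n = 3). There, *Junb* and *Egr1* were again each clear of the next gene. Unlike in the wild-type mice, *Nr4a1* was clear of *Egr2*, *Fos* of *Egr3* and *Egr3* of *Nr4a3*.

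**Figure D1:**
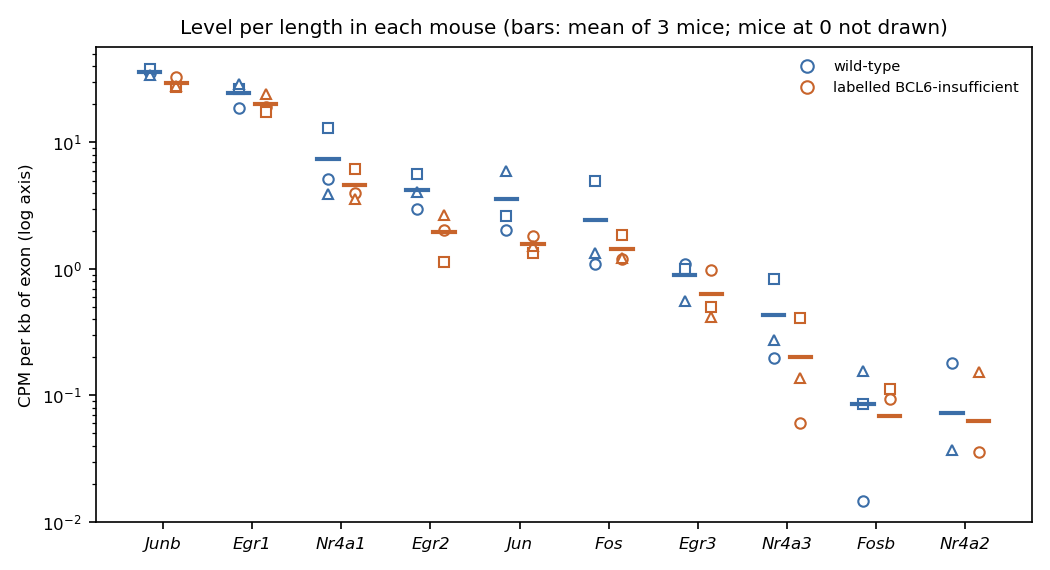
Level of each member per length, as TMM-scaled CPM per kb of summed exon length on a log axis, in the order of the wild-type means. Each symbol is 1 mouse (circle, square and triangle for mice 1, 2 and 3), bars are the means of 3 mice, and mice at 0 are not drawn; *Junb* and *Egr1* stand above the other 8 members in both groups.

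*Fosb*, an activator subunit of AP-1, and *Nr4a2* had too few counts for a test. *Fosb* had between 0 and 8 counts in a library and was at 0 in 4 of the 6 libraries labelled BCL6-insufficient and in 2 of the 6 wild-type libraries. *Nr4a2* had between 0 and 8 counts and was at 0 in 4 and 3 of them. A count of 0 allows a level of up to 0.361 to 0.897 CPM at these depths (3 counts, counting error only), so no difference between the groups was detectable for either gene.

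All 8 members with enough counts for a test had a lower mean in the mice labelled BCL6-insufficient, and 2 of them, *Jun* and *Egr2*, passed the test. In bulk RNA, fewer cells that transcribe a gene and less of its RNA in each cell cannot be told apart. The median of their log2 fold changes, given throughout as labelled BCL6-insufficient minus wild-type, was -0.73, against 0.01 over the 12719 genes tested, of which 49.0% lay below 0. Of all genes tested, 8.82% were called lower and 9.17% higher by edgeR on the 6 mice (adjusted p under 0.05), and 2 of 8 members were called lower and 0 of 8 higher. This even split of calls over all genes moved with the processing, to 1331 higher and 957 lower with upper-quartile scaling in edgeR. By limma on log2(TPM + 1), where the test changed as well as the scaling, it was 390 higher and 915 lower. At an unadjusted p under 0.05, 4 members were lower, against 15.2% of all genes. The 3 mice labelled BCL6-insufficient all lay below the 3 wild-type mice for *Jun*, *Junb* and *Egr2*, as they did for 17.0% of all genes tested. The members are not independent of one another: wild-type mouse 2 repeat 1 held the highest wild-type value of 6 of the 8. Without that library, 7 of the 8 remained below 0, with a median of -0.36, and *Jun* and *Egr2* were still called.

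**Figure D2:**
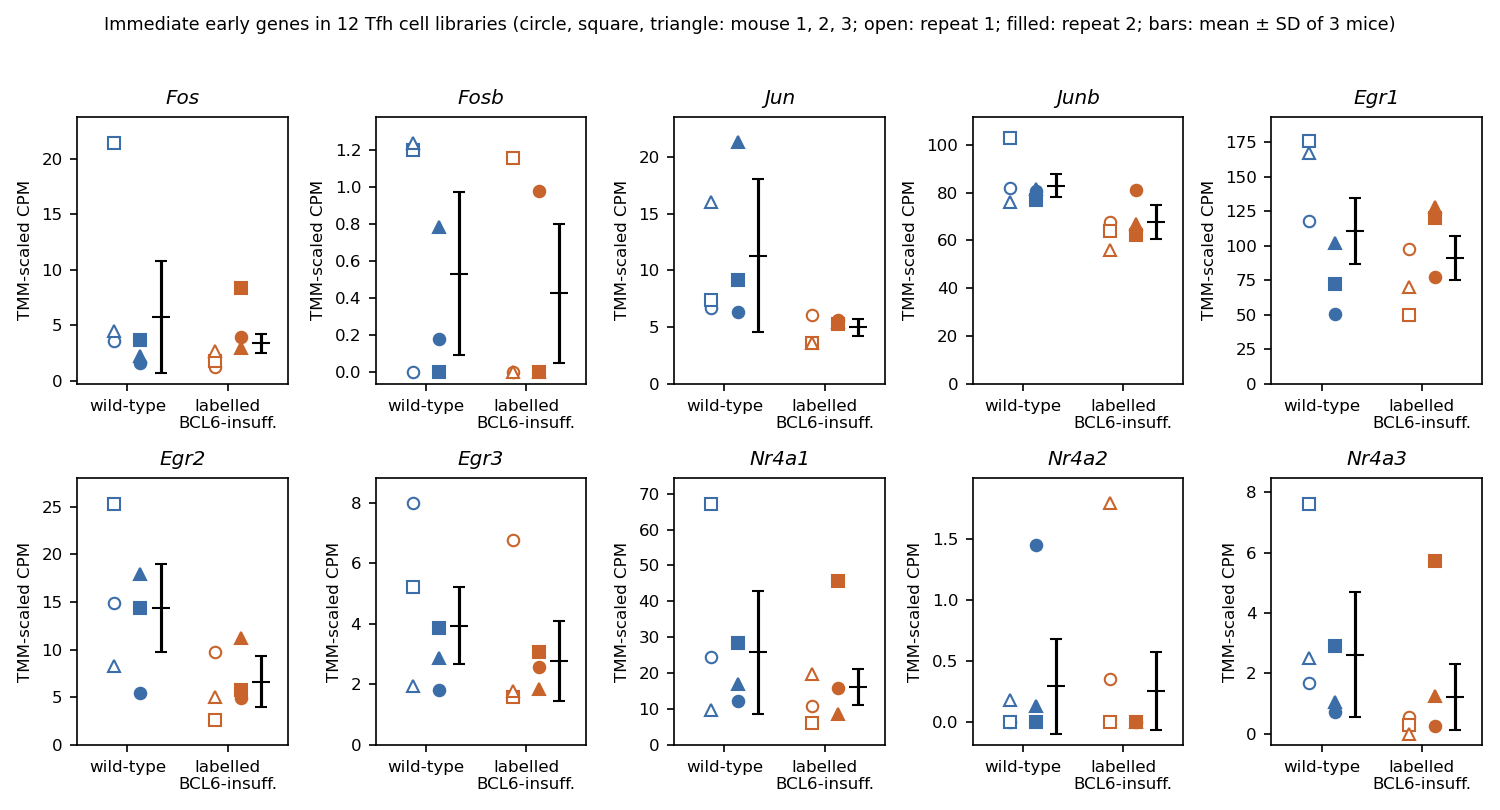
TMM-scaled CPM of the 10 members in the 12 libraries, with circle, square and triangle for mice 1, 2 and 3, open symbols for repeat 1 and filled ones for repeat 2, and black bars for the mean ± SD of 3 mice. *Jun* separates all 12 libraries by label, while the open square of the wild-type group (mouse 2 repeat 1) stands far above the rest for *Fos* (21.4) and *Nr4a1* (67.1).

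*Jun*, the transactivating partner in AP-1, was lower in the mice labelled BCL6-insufficient. Its levels there were 5.82, 4.28 and 4.83 CPM in mice 1, 2 and 3, and 6.5, 8.36 and 19.0 CPM in the wild-type mice. The groups did not overlap, nor did their single libraries (at most 6.05 and at least 6.35 CPM), and wild-type mouse 3 lay well above the other two. The log2 fold change was -1.18 (standard error 0.35, 95% interval -1.90 to -0.47, adjusted p = 0.0198 in edgeR's test), a 2.27-fold lower mean. The technical repeats of a mouse gave close values, as in wild-type mouse 3 with 16.0 and 21.3 CPM and in mouse 2 labelled BCL6-insufficient with 3.61 and 5.28 CPM. Without wild-type mouse 3, the log2 fold change of *Jun* was -0.58 (adjusted p = 0.341, edgeR), and the call was also lost without mouse 2 (-1.08, adjusted p = 0.0695) or mouse 3 (-1.16, adjusted p = 0.0561) labelled BCL6-insufficient. The library with the most *Jun*, wild-type mouse 3 repeat 2, also had the highest summed B cell markers (1022 CPM), and their part in the result was not tested. *Jun* is a single-exon gene on chromosome 4 (GRCm38, 95049034 to 95052222, minus strand) and overlaps exons of *Junos* on the opposite strand, which had 0 to 20 counts in a library. The SMART-Seq2 kit does not mark the strand, so reads of the pair cannot be told apart where they overlap.

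*Junb*, the JUN protein that dimerizes with BATF and FOS in activated T cells, showed a small difference that did not pass the test. It had 75.8, 63.3 and 63.7 CPM in the mice labelled BCL6-insufficient and 81.1, 88.2 and 79.0 CPM in the wild-type mice. The groups did not overlap, but the log2 fold change was -0.29 (standard error 0.12, 95% interval -0.53 to -0.05, adjusted p = 0.0937 in edgeR's test). *Junb* has the highest transcript GC content of the members (62.6%), and its log2 fold change was -0.05 (adjusted p = 0.817, edgeR) once trends with GC content and length were removed. Its exons overlap those of *Prdx2* on the opposite strand, which had 1169 to 2574 counts in a library.

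*Fos*, the founding FOS-type subunit, depended on 1 library. The libraries labelled BCL6-insufficient held 1.25, 1.73 and 2.68 CPM in repeat 1 of mice 1, 2 and 3, and 3.93, 8.37 and 2.95 CPM in repeat 2. The wild-type libraries held 3.53, 21.4 and 4.44 CPM in repeat 1, and 1.63, 3.69 and 2.22 CPM in repeat 2. Wild-type libraries were thus higher in repeat 1 and lower in repeat 2, on the whole, without overlap in repeat 1 and with overlap in repeat 2 (2.95 against 3.69 CPM). With the repeats summed, the log2 fold change was -0.77 (standard error 0.47, 95% interval -1.75 to 0.21, adjusted p = 0.286 in edgeR's test). Without wild-type mouse 2 repeat 1 it was 0.10 (adjusted p = 0.919, edgeR), and without wild-type mouse 2 as a whole 0.22 (adjusted p = 0.829, edgeR).

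*Egr2*, which was lower in the mice labelled BCL6-insufficient, was the EGR gene that passed the test. Its levels were 6.92, 3.85 and 9.15 CPM in mice 1, 2 and 3 labelled BCL6-insufficient, and 10.1, 19.2 and 13.8 CPM in the wild-type mice. The groups did not overlap, although mouse 3 of the former and mouse 1 of the latter lay close together. The log2 fold change was -1.12 (standard error 0.30, 95% interval -1.75 to -0.49, adjusted p = 0.0123 in edgeR's test), a 2.17-fold lower mean. The call was lost without mouse 2 labelled BCL6-insufficient (-0.85, adjusted p = 0.0656) and without wild-type mouse 2 (-0.86, adjusted p = 0.1), and the direction was kept in all 6 fits that left out 1 mouse. In single libraries the groups overlapped, since wild-type mouse 1 held 14.9 CPM in repeat 1 and 5.44 CPM in repeat 2, and mouse 3 labelled BCL6-insufficient held 5.06 and 11.2 CPM. *Egr2* lies on chromosome 10 (GRCm38, 67535475 to 67542188, plus strand), with no overlapping gene.

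*Egr1*, the most abundant EGR gene, did not differ beyond its spread with the repeats summed. It had 86.0, 78.0 and 109 CPM in the mice labelled BCL6-insufficient and 83.6, 118 and 129 CPM in the wild-type mice, with a log2 fold change of -0.28 (standard error 0.14, 95% interval -0.58 to 0.02, adjusted p = 0.188 in edgeR's test). Without wild-type mouse 1 the gene was called lower (-0.46, adjusted p = 0.0331), and without wild-type mouse 3 the value was -0.16 (adjusted p = 0.59). *Egr3*, which is itself a target of NFAT, had 4.29, 2.19 and 1.85 CPM and 4.85, 4.44 and 2.48 CPM in the same order. Its groups overlapped, and the log2 fold change was -0.48 (standard error 0.46, 95% interval -1.43 to 0.47, adjusted p = 0.523 in edgeR's test).

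*Nr4a1* overlapped between the groups, and wild-type mouse 2 stood apart. It had 13.9, 21.8 and 12.5 CPM in the mice labelled BCL6-insufficient and 18.2, 45.5 and 13.8 CPM in the wild-type mice. The log2 fold change was -0.68 (standard error 0.31, 95% interval -1.32 to -0.04, adjusted p = 0.132 in edgeR's test). Without wild-type mouse 2 no difference was left (-0.00, adjusted p = 0.999, edgeR), and without its repeat 1 alone the value was -0.31 (adjusted p = 0.485). *Nr4a1* passed the test when every gene with at least 1 count in any mouse was kept (-0.69, adjusted p = 0.00908, edgeR), and without wild-type mouse 3 it was called lower at -0.99 (adjusted p = 0.0300, edgeR). *Nr4a3*, the scarcest tested member, had 0.364, 2.45 and 0.822 CPM and 1.19, 4.98 and 1.65 CPM in the same order. Mouse 2 was highest in both groups, the groups overlapped, and the log2 fold change was -1.10 (standard error 0.70, 95% interval -2.55 to 0.34, adjusted p = 0.302 in edgeR's test). With summed counts of 5 to 28 and 13 to 56 per mouse, the interval of this log2 fold change was wide and included 0. The value was -2.15 (adjusted p = 0.0971, edgeR) without mouse 2 labelled BCL6-insufficient and -0.25 (adjusted p = 0.889) without wild-type mouse 2.

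**Figure D3:**
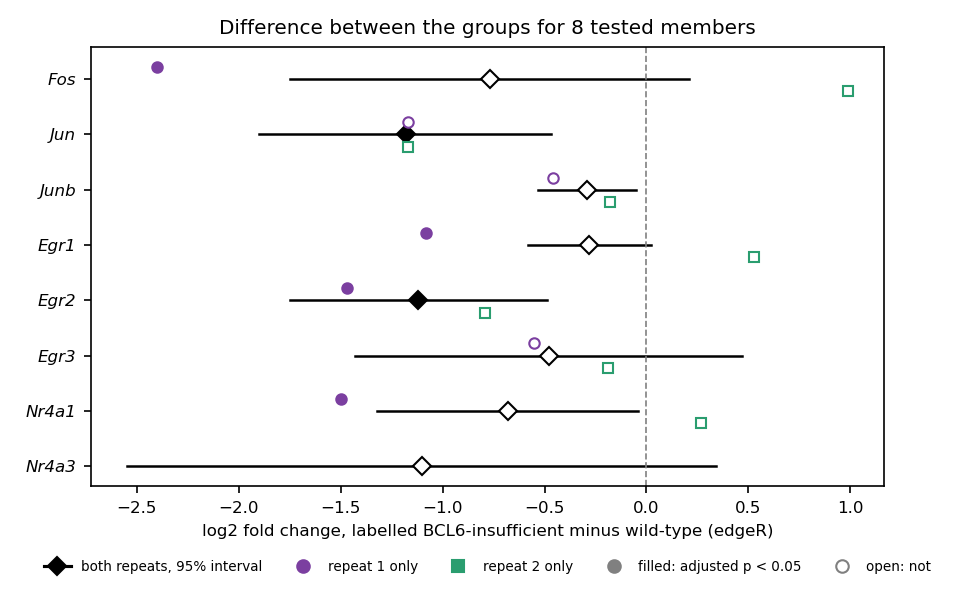
Log2 fold change of the 8 tested members, labelled BCL6-insufficient minus wild-type, with both repeats summed (diamonds, 95% interval) and with each technical repeat alone (circles, repeat 1; squares, repeat 2; *Nr4a3* was not tested in either); filled symbols have an adjusted p under 0.05. *Fos*, *Egr1* and *Nr4a1* lie below 0 with repeat 1 and above 0 with repeat 2, while *Jun* is at -1.17 in both.

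The values of 3 members lay on opposite sides of 0 when each technical repeat was fitted alone. With repeat 1 alone, edgeR's test on the 3 mice of each group called *Fos* (-2.40, adjusted p = 0.0116), *Egr1* (-1.08, adjusted p = 0.000163), *Nr4a1* (-1.50, adjusted p = 0.0153) and *Egr2* (-1.47, adjusted p = 0.0282) lower in the mice labelled BCL6-insufficient. These were 4 of the 7 members tested there, with 4.54% of all genes called lower. With repeat 2 alone 0 of 7 were called, with 6.11% of all genes called lower, so that the absence of calls there is near the background. *Fos* (0.99, adjusted p = 0.323), *Egr1* (0.53, adjusted p = 0.0627) and *Nr4a1* (0.27, adjusted p = 0.708) were then above 0, and *Egr2* was at -0.79 (adjusted p = 0.219). *Jun* kept its size, at -1.17 with repeat 1 (adjusted p = 0.12) and -1.17 with repeat 2 (adjusted p = 0.0619).

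The change from repeat 1 to repeat 2 within each mouse was therefore compared between the groups, a test chosen after these values were seen. *Egr1* was the member for which it differed. In the wild-type mice, *Egr1* went from 118 to 50.6 CPM, from 176 to 72.4 CPM and from 167 to 102 CPM in mice 1, 2 and 3. In the mice labelled BCL6-insufficient it went from 97.5 to 77.6 CPM, from 50.2 to 120.0 CPM and from 69.9 to 128 CPM. The level thus fell in 3 of 3 wild-type mice and rose in 2 of 3 of the others. The log2 change was -1.06 (standard error 0.18) and 0.59 (standard error 0.19), and their difference was 1.66 (standard error 0.26, adjusted p = 0.00142 in edgeR's test over all genes). For this difference 0.0943% of all genes tested were called, 12 in number, of which *Egr1* had the second smallest p. The call held in each of the 6 fits that left out 1 mouse (1.32 to 2.13, highest adjusted p = 0.0249), by limma voom (1.58, adjusted p = 4.79e-05) and after removal of GC and length trends (1.64, adjusted p = 0.000460).

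The other members did not pass this test. *Fos* rose in 3 of 3 mice labelled BCL6-insufficient and fell in 3 of 3 wild-type mice, with a difference of 2.99 (standard error 0.85, adjusted p = 0.241, edgeR). The differences of *Nr4a3* (3.70, standard error 1.55, adjusted p = 0.589) and *Nr4a1* (1.30, standard error 0.59, adjusted p = 0.621) had wide errors. Those of *Egr2* (0.74, standard error 0.63) and *Egr3* (0.47, standard error 1.0) were under 2 standard errors, and those of *Jun* (0.10, standard error 0.58) and *Junb* (0.27, standard error 0.22) were near 0. In 6 of the 8 tested members the fitted change was upward in the mice labelled BCL6-insufficient and downward in the wild-type mice, as it was for 25.9% of all genes tested. The share of counts taken by the ribosomal RNA gene CT010467.1 moved in the same way (difference 0.63, adjusted p = 0.00142, edgeR), from 15.7% to 14.6%, 20.9% to 15% and 15.5% to 12.7% in the wild-type mice and from 16.6% to 17.1%, 14.8% to 15.7% and 12% to 17.1% in the others. Its part in the *Egr1* result was not tested.

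**Figure D4:**
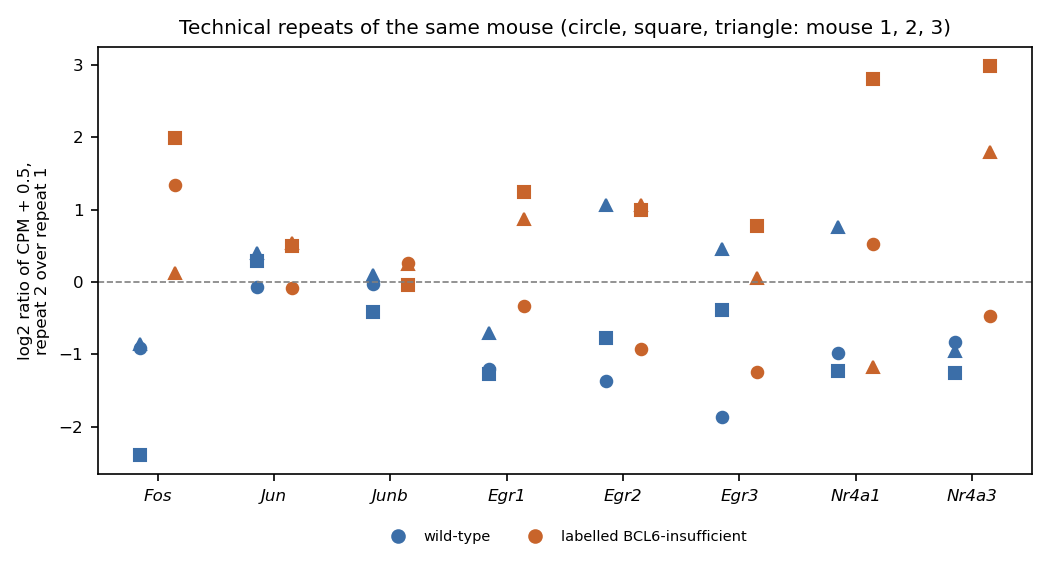
Log2 ratio of technical repeat 2 over repeat 1 (CPM + 0.5) for each mouse and tested member, with circle, square and triangle for mice 1, 2 and 3. All 3 wild-type mice lie below 0 for *Fos*, *Egr1* and *Nr4a3*, and *Jun* and *Junb* stay within 0.54 of 0 in all 6 mice.

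Repeats of the same mouse differed more for some members than for genes of like count. The mean chi-square statistic between the repeats of a mouse was 127 for *Egr1*, 58.6 for *Nr4a1*, 20.1 for *Fos* and 14.9 for *Egr2*, against medians of 8.20, 5.58, 4.65 and 4.98 over the 500 genes nearest to each in mean count. It exceeded that of all 500 such genes for *Egr1* and *Fos*, of 99.8% for *Nr4a1* and of 97.4% for *Egr2*. *Jun* was the reverse, with 1.56 against a median of 4.86, above 5.60% of its neighbors, and *Junb* had 5.72 against 7.16. These are descriptions of 6 pairs of libraries, without a test.

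*Fos*, *Nr4a1* and *Nr4a3* peaked in the same libraries, which *Nr4a2* did not, being at 0 in both. *Fos*, *Nr4a1* and *Nr4a3* were all highest in mouse 2 repeat 2 among the libraries labelled BCL6-insufficient (8.37, 45.6 and 5.73 CPM) and in mouse 2 repeat 1 among the wild-type libraries (21.4, 67.1 and 7.62 CPM). The latter library also held the highest *Egr1*, *Egr2* and *Junb* of the wild-type group. Its total count was 5272122, within the range of the others, its heat shock genes summed to 4923 CPM (wild-type range 4743 to 5785), its B cell markers to 593 CPM, the lowest of the wild-type libraries, and its ribosomal RNA share was the highest of the 12. The library of mouse 2 repeat 2 labelled BCL6-insufficient had the highest B cell marker sum of its group (861 CPM), the lowest heat shock sum (4881 CPM) and a ribosomal RNA share of 15.7%. Whether these values bear on the members was not tested.

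Among 7830 other genes with a mean of at least 10 CPM, those whose levels most resembled each family were found from the log2(CPM + 1) values of the 12 libraries after each group's mean was subtracted. For AP-1 they were *Plekhm1* (Pearson r = 0.897), *Oxnad1* (0.836) and *Ehmt1* (0.829). For EGR they were *Ubl3* (0.903), *Ubxn7* (0.848) and *Siah2* (0.831), and for NR4A *Klf7* (0.894), *Thap2* (0.877) and *Slc38a2* (0.858). The AP-1 members themselves did not all move together (Pearson r = -0.13 for *Fos* and *Jun*, -0.03 for *Jun* and *Junb*, 0.47 for *Fos* and *Junb*). The genes named were picked as the highest of 7830, and how high unrelated genes would reach was not tested. The libraries come in pairs from 6 mice and share depth, so these values are a description.

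The lists of other genes tied to these factors had medians between -0.11 and 0.23, and 3 of the 6 lists held calls in both directions. Over all genes tested, 9.17% were called higher and 8.82% lower. Of 8 further AP-1 and BATF subunits, 3 were tested and 1, *Jund*, was higher in the mice labelled BCL6-insufficient (55.9 ± 9.58 against 42.2 ± 2.40 CPM, SD, n = 3, log2 fold change 0.41, adjusted p = 0.0480, edgeR). *Jund*, the constitutive JUN gene, was at -0.42 (adjusted p = 0.213) with repeat 1 alone and at 1.0 (adjusted p = 0.000222) with repeat 2 alone. When 1 mouse was left out it was called only without mouse 2 labelled BCL6-insufficient, with an adjusted p of up to 0.271 in the other 5 fits. *Batf*, which pairs with JUN proteins and is needed for Tfh cells, had 212 ± 23.6 and 201 ± 14.8 CPM (SD, n = 3). Of 6 partners and corepressors of EGR and NR4A proteins, 4 were tested, and *Nab1*, which encodes a corepressor of EGR proteins, was higher (47.9 ± 9.40 against 32.2 ± 3.01 CPM, SD, n = 3, log2 fold change 0.57, adjusted p = 0.0143, edgeR). Its call was lost without mouse 1 (0.49, adjusted p = 0.0764) or mouse 3 (0.48, adjusted p = 0.0727) labelled BCL6-insufficient or wild-type mouse 2 (0.49, adjusted p = 0.0770), and with repeat 2 alone (0.49, adjusted p = 0.121).

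Of 16 factors that act upstream of immediate early genes, 14 were tested, with 2 higher, 2 lower and a median log2 fold change of -0.01. *Srf*, which encodes the factor that binds CArG boxes, was higher at 26.1 ± 6.70 against 15.5 ± 1.68 CPM (SD, n = 3, log2 fold change 0.75, standard error 0.20, adjusted p = 0.0121, edgeR). Its call was lost without mouse 1 labelled BCL6-insufficient (0.52, adjusted p = 0.117) or wild-type mouse 2 (0.68, adjusted p = 0.0546). *Elk4*, a ternary complex factor that joins SRF, was higher at 102 ± 7.53 against 67.4 ± 13.3 CPM (SD, n = 3, log2 fold change 0.60, adjusted p = 0.00255, edgeR) and was called in all 6 fits that left out 1 mouse. *Mrtfa*, an actin-regulated SRF cofactor, was lower at 37.8 ± 2.08 against 53.8 ± 1.29 CPM (SD, n = 3, log2 fold change -0.51, adjusted p = 0.00897, edgeR), also in all 6. *Crtc2*, a coactivator of CREB, was lower at 33.5 ± 2.76 against 47.0 ± 6.31 CPM (SD, n = 3, log2 fold change -0.49, adjusted p = 0.0239, edgeR). It was called in 2 of the 6 fits and not called without mouse 1 (-0.42, adjusted p = 0.0973) or mouse 2 (-0.51, adjusted p = 0.0537) labelled BCL6-insufficient or wild-type mouse 1 (-0.50, adjusted p = 0.0571) or 2 (-0.40, adjusted p = 0.127). With GC and length trends removed, *Mrtfa* (-0.37, adjusted p = 0.0607) and *Crtc2* (-0.34, adjusted p = 0.129) were not called. *Elk4* was also called with each technical repeat alone, *Mrtfa* with repeat 2 but not repeat 1 (-0.50, adjusted p = 0.1), and *Srf* and *Crtc2* with neither.

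Of 38 other rapidly induced genes, 33 were tested, with 5 higher, 1 lower and a median of 0.01. Higher were *Nfkbiz*, an atypical IκB (log2 fold change 0.67, adjusted p = 0.00328, edgeR), *Rgs1*, a regulator of G protein signaling (0.82, adjusted p = 0.00707), *Irf4* (0.70, adjusted p = 0.00947), *Sgk1* (0.68, adjusted p = 0.0212) and *Cd69*, the early activation antigen (0.60, adjusted p = 0.0216). The calls of *Nfkbiz* and *Rgs1* held in all 6 fits that left out 1 mouse. *Nfkbiz* was also called with each technical repeat alone, whereas *Rgs1* was at 1.6 (adjusted p = 0.000553, edgeR) with repeat 1 and at 0.28 (adjusted p = 0.582) with repeat 2. With repeat 2 alone *Irf4* (0.43, adjusted p = 0.168), *Cd69* (0.52, adjusted p = 0.154) and *Sgk1* (0.65, adjusted p = 0.113) were not called either, nor was *Sgk1* with repeat 1 (0.72, adjusted p = 0.0719). *Irf4* was not called without mouse 1 labelled BCL6-insufficient (0.40, adjusted p = 0.140) or wild-type mouse 3 (0.62, adjusted p = 0.0555), nor *Cd69* without the same mice (0.54, adjusted p = 0.0889, and 0.39, adjusted p = 0.150). *Sgk1* was not called without mouse 2 (0.67, adjusted p = 0.0565) or mouse 3 (0.57, adjusted p = 0.0943) labelled BCL6-insufficient or wild-type mouse 1 (0.48, adjusted p = 0.127). *Zfp36l2*, an RNA-binding protein gene, was lower (-0.54, adjusted p = 0.0413, edgeR) but was called in 0 of the 6 fits that left out 1 mouse (adjusted p 0.0501 to 0.138) and was at -0.16 (adjusted p = 0.76) with repeat 2 alone. *Ier2*, a classical immediate early gene, had 81.8 ± 6.61 against 81.3 ± 4.80 CPM (SD, n = 3), with a 95% interval of -0.23 to 0.24 for the log2 fold change, and the ERK phosphatase gene *Dusp6* had 10.1 ± 4.15 against 14.7 ± 3.18 CPM (adjusted p = 0.184, edgeR).

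Of 23 genes reported as EGR or NR4A targets, 17 were tested, with 3 higher, 4 lower and a median of -0.11. *Tox2*, a Tfh transcription factor gene, was lower at 135 ± 10.4 against 236 ± 10.4 CPM (SD, n = 3, log2 fold change -0.80, adjusted p = 8.01e-06, edgeR). *Lag3*, an inhibitory receptor gene, was lower (-0.84, adjusted p = 0.00600), as was *Pdcd1*, which encodes PD-1 (-0.42, adjusted p = 0.00420). *Ikzf2*, which encodes Helios, was higher (0.62, adjusted p = 0.00204). These 4 calls held in all 6 fits that left out 1 mouse. With repeat 1 alone *Pdcd1* (-0.17, adjusted p = 0.541, edgeR) and *Lag3* (-0.62, adjusted p = 0.284) were not called, while *Tox2* and *Ikzf2* were called with each repeat. By limma on log2(TPM + 1), *Jund*, *Nab1*, *Elk4*, *Srf*, *Mrtfa*, *Nfkbiz*, *Irf4*, *Sgk1*, *Cd69*, *Ikzf2*, *Id2* and *Cd5* were not called (adjusted p 0.0505 for *Mrtfa* to 0.324 for *Jund*). Beside *Mrtfa* and *Crtc2*, the removal of GC and length trends ended the calls of *Cd69* (0.44, adjusted p = 0.0787, edgeR), *Zfp36l2* (-0.41, adjusted p = 0.13) and *Cd5* (-0.16, adjusted p = 0.333). *Id2*, an inhibitor of E proteins, was higher (0.82, adjusted p = 0.0145, edgeR) but not without mouse 1 labelled BCL6-insufficient (0.67, adjusted p = 0.0878) or wild-type mouse 2 (0.66, adjusted p = 0.0847) or 3 (0.77, adjusted p = 0.0621), nor with either repeat alone (adjusted p 0.0576 and 0.174). *Cd5* was lower (-0.34, adjusted p = 0.0312, edgeR) but not without mouse 1 or 2 labelled BCL6-insufficient or wild-type mouse 1 or 3 (adjusted p 0.0566 to 0.189), nor with repeat 1 alone (-0.28, adjusted p = 0.238). The third higher gene of this list was *Tnfrsf4* (41.8 ± 16.4 against 23.7 ± 6.59 CPM, SD, n = 3, log2 fold change 0.81, adjusted p = 0.0174, edgeR), whose mice overlapped. Because the sort used PD-1 and CXCR5, *Pdcd1* levels are those of gated cells. Of 8 cytokine genes driven by NFAT and AP-1, 4 were tested, with 1 higher, *Il4* (65.6 ± 10.4 against 47.1 ± 11.8 CPM, SD, n = 3, adjusted p = 0.0353, edgeR), whose mice overlapped.

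**Figure D5:**
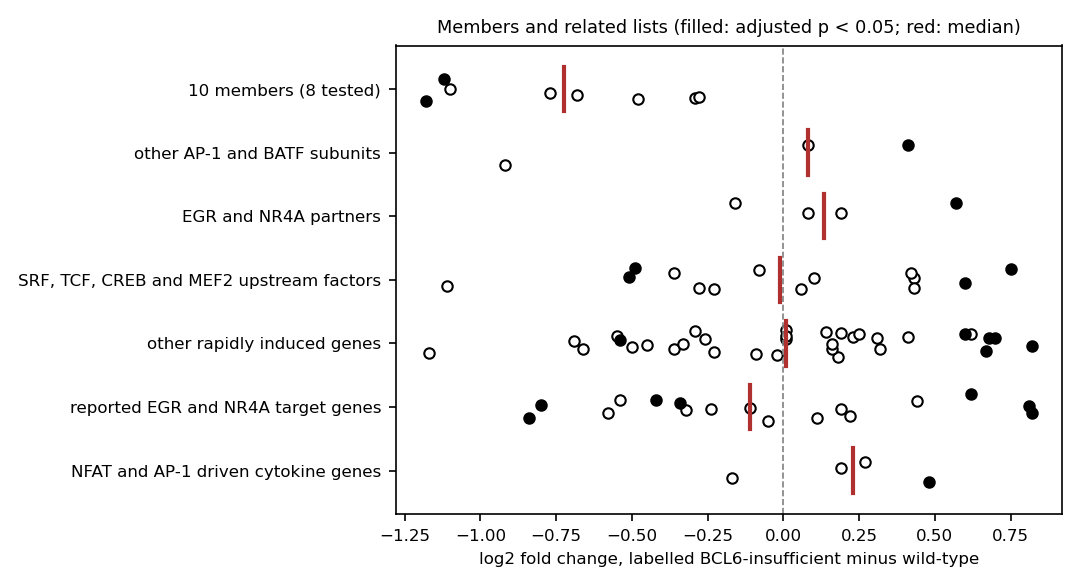
Log2 fold change, labelled BCL6-insufficient minus wild-type, of every tested gene of the members and of 6 related lists, with filled points for an adjusted p under 0.05 and red bars for medians. The 8 tested members all lie below 0, with a median of -0.73, while the medians of the 6 lists lie between -0.11 and 0.23.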

How the data were processed

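RNA of CXCR5hiPD-1hi OT-II Tfh cells was measured in 12 libraries from 6 recipient mice. The authors aligned reads with Hisat2 2.2.1 (build mm10, that is GRCm38). They deposited unnormalized gene counts from HTSeq-count, the values tested here. The deposited TPM values, made by the authors from the counts, served as an alternative. The authors tested genes with DESeq2.

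Counts of the 2 repeats of a mouse were summed, and the mice were compared with edgeR 4.0.16 in R 4.3.3 (filterByExpr, TMM, quasi-likelihood test, Benjamini-Hochberg adjustment over 12719 genes, threshold 0.05). Standard errors came from the log2 fold change and F statistic. Levels in CPM are scaled by TMM. Alternatives used DESeq2 1.42.0, limma 3.58.1 (voom over 12 libraries with correlated repeats, or log2(TPM + 1) and log2(TPM + 0.1)), mgcv 1.9.3 (GC and length trends), other scalings and filters, single repeats and leaving out each mouse. Tests were tried on simulated data. Lengths came from GENCODE M21, in which 23801 of 24561 symbols matched by name and 208 by another symbol. Total counts were 3343375 to 8315722 per library, and counting limits cover counting error only, since reads carry no molecular identifiers.

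The members and lists were chosen with earlier results of these data known. Named genes were the 10 members, *Bcl6*, up to 5 genes of smallest p per list and direction with adjusted p under 0.05 and mice that do not overlap, and the 3 genes most like each family. *Il4*, *Tnfrsf4*, *Batf*, *Ier2*, *Dusp6* and the single B cell markers were named after their values were seen.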

Additional observations from a re-analysis of the deposited data

Results flagged for a closer look

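The change of *Egr1* from technical repeat 1 to repeat 2 differed between the groups by 1.66 on the log2 scale (edgeR adjusted p = 0.00142), falling in 3 of 3 wild-type mice and rising in 2 of 3 labelled BCL6-insufficient.

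A library stood far from the other 5 of its group in 9 of the 20 groups of 6 tested, in 6 of the 10 members. The rule would flag about 1 in 20 groups of normally distributed values. That rate need not hold for these counts, many of them low, so the 2 numbers cannot be compared. The members share libraries, so these flags are not separate events. Wild-type mouse 2 repeat 1 stood apart for *Fos* (21.4 CPM, median of the others 3.53), *Junb* (103 CPM, 80.6), *Nr4a1* (67.1 CPM, 16.9) and *Nr4a3* (7.62 CPM, 1.67). Mouse 2 repeat 2 labelled BCL6-insufficient stood apart for *Nr4a1* (45.6 CPM, 10.9) and *Nr4a3* (5.73 CPM, 0.289). *Egr3* was high in mouse 1 repeat 1 labelled BCL6-insufficient (6.76 CPM, 1.86). *Nr4a2* was high in mouse 3 repeat 1 labelled BCL6-insufficient (1.79 CPM, from 6 counts) and in wild-type mouse 1 repeat 2 (1.45 CPM, from 8 counts), with a median of 0 in the others of each group.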

How the results depend on the processing

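*Jun* and *Egr2* kept their direction under all alternatives run, but their calls did not hold in several of them. With repeat 1 only, 1059 genes were called, 4 of them members, all lower, with a member median of -1.17. With repeat 2 only, 1446 genes and 0 members were called, with a median of -0.18, and *Fos* (0.99), *Egr1* (0.53) and *Nr4a1* (0.27) changed sign, as did *Jund* with repeat 1 only (-0.42). The TPM fits called 1305 genes with log2(TPM + 1) (member median -0.46), 1260 with log2(TPM + 0.1) (374 higher and 886 lower, with the median of all genes at -0.11) and, over all genes, 221 genes and 0 members (median -0.43), against 2288 genes in edgeR's test of summed counts. *Jun* was not called in these 3 fits (adjusted p 0.107 to 0.276, limma), and *Junb* was with log2(TPM + 1) (adjusted p = 0.0333) and log2(TPM + 0.1). Without wild-type mouse 2 repeat 1 the median was -0.36 and *Fos* was at 0.10. Leaving out each mouse in turn gave 1424 to 1972 genes, 0 (without mouse 2 labelled BCL6-insufficient) to 3 members called lower, a median of -1.0 to -0.25 and *Fos* at -1.13 to 0.22, the latter without wild-type mouse 2. The cause of these shifts was not tested.

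Mice with the same number did not deviate together (correlations 0.0776, -0.0324 and 0.0199), so the numbers do not pair them. With the replicate block 2579 genes and the same 2 members were called (median -0.54). With the block and GC and length trends removed, 2274 genes and 1 member, *Egr2*, were called (median -0.42). DESeq2 called 2558 genes and the same 2 members. The low counts of *Egr3* and *Nr4a3* limit what could be detected for them.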

Other observations

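Of the 12 genes whose change between the technical repeats differed between the groups, *Egr1* was the only member. *Jund* rose in 3 of 3 mice labelled BCL6-insufficient, from 43.8 to 80.7, 35.6 to 63.4 and 32.4 to 66.4 CPM, and fell in 3 of 3 wild-type mice, from 59.3 to 30.7, 43.9 to 36.9 and 47.4 to 38.2 CPM (difference 1.42 on the log2 scale, edgeR adjusted p = 0.0138). *Klf2*, which encodes a factor that maintains quiescence and egress, rose from 182 to 223, 157 to 221 and 108 to 199.6 CPM in the former and was lower in repeat 2 of all 3 wild-type mice (difference 0.91, adjusted p = 0.0397). *Midn*, whose protein midnolin promotes degradation of nuclear proteins that include EGR1, had a difference of 2.19 (adjusted p = 0.0397). The other 8 were *Tmsb10* (0.65), *Gnas* (0.71), *H3c13* (1.74), Gm20721 (0.76), Gm9844 (1.18), Gm20628 (1.36), Gm23935 (1.63) and CT010467.1 (0.63). The number of genes called was 3 to 19 when each mouse was left out and 20 by limma voom.

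Of the 14 T and Tfh cell markers, all tested, the mice labelled BCL6-insufficient had more of 3 (*Bcl6*, *Icos* at 0.64 and *Trac* at 0.55 on the log2 scale) and less of 4, among them *Cxcr5* (-0.40, adjusted p = 0.00476, edgeR). Of 12 tested heat shock genes, *Hspe1* was higher (0.50, not called without mouse 3 labelled BCL6-insufficient, 0.31, or wild-type mouse 1, 0.37). *Hspd1* (-0.35) and *Dnajb1* (-0.31) were lower, called in 2 and 0 of the 6 fits that left out 1 mouse. Of 9 tested B cell markers 0 were called by edgeR, with the smallest adjusted p at 0.0511 for *Ighm* (-0.30). Among 5 tested myeloid markers, *Lyz2* was higher (7.77 ± 7.52 against 1.24 ± 1.02 CPM, SD, n = 3), a call lost without mouse 1 labelled BCL6-insufficient (1.45, adjusted p = 0.201). *Lyz2* was also not called by DESeq2 on the 6 mice or with repeat 2 alone. *Ctss* was lower (-0.39, called in 2 of those 6 fits and not with repeat 1 alone). By limma on log2(TPM + 1), *Trac* (adjusted p = 0.0528), *Hspe1* (0.229), *Hspd1* (0.0991), *Lyz2* (0.131) and *Ctss* (0.0832) were not called, nor were the 3 heat shock genes by edgeR with GC and length trends removed (adjusted p 0.0539 to 0.244).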
